A study of Rattus norvegicus with 3 samples.

Results

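The core circadian clock genes were examined in ROS17/2.8 cells, a rat osteosarcoma line with osteoblast properties, after treatment with polyphosphate, a linear chain of phosphate residues. The 10 genes were Per1, Per2, Per3, Cry1, Cry2, Arntl (now named Bmal1), Clock, Dbp, Nr1d1 and Nr1d2, chosen as the transcription loop of the clock and its nearest targets. They were found by gene name and were read by 16 of the 30367 probes (35 of 58717 spots) on a one-colour Agilent rat array. All cells were confluent and kept in a medium that favours mineralization, with ascorbate phosphate and 1 mM β-glycerophosphate. The high dose array came from cells given polyphosphate at 1 mg/ml for 24 h, the low dose array from cells given 0.01 mg/ml for 24 h, and the control array from cells given none, for which no time is stated. Each group was 1 array from 1 clonal line, so the differences have no replicate check and carry no p-value.

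In the clock, the proteins of Arntl and Clock form an activator that binds E-box sequences and drives the Per and Cry genes, whose proteins return to repress it. The same activator drives Nr1d1 and Nr1d2, nuclear receptors that repress Arntl through sequences called ROREs, and Dbp, a factor that activates genes through D-box sequences. The loop runs in osteoblasts as in most cells, and cultures lose a common phase unless a medium change, serum or a hormone resets them.

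A level is the log2 of a spot's signal relative to the array's own 75th percentile of signal (937 with the high dose, 964 with the low dose and 926 without polyphosphate). A log2 ratio is the difference of such levels between 2 arrays, averaged over the probes of a gene that were well above background on both. The high dose ratio and the low dose ratio are each against the control array, which they share, and the high-to-low ratio sets the doses against each other. The ± value is a spot error, from the spread of repeat spots of a probe at that level, and leaves out any spread between cultures. A gene was counted as apart where its ratio was at least 1.2-fold and more than 2 spot errors from 0. Where spots are said not to overlap between arrays, the share of all probes that do so is not given. With 1 or 2 spots of a probe on each array, lack of overlap is common and carries little weight. Of all genes measured, 4.21% were counted as higher and 4.59% as lower on the high dose array than on the control array (610 and 665 of 14492), or 2552 and 121 with the arrays centred on spike-in RNA. On the low dose array 1.31% were higher and 1.77% lower than on the control array (191 and 259 of 14617), or 1529 and 61 with that centring. The 8 usable of 10 spike-in probes had a mean high dose ratio of -0.15 and a mean low dose ratio of -0.16, so that centring moves every ratio against the control up by as much. Between the high and the low dose 3.84% of genes were higher and 3.04% lower. All 7 osteoblast markers examined (Runx2, Sp7, Alpl, Ibsp, Spp1, Bglap and Col1a1) were well above background on every array, against 1 to 3 of 5 markers each for adipocytes, chondrocytes, myoblasts, macrophages and endothelial cells. Their levels differed widely. On the control array Spp1 read 9898 but Bglap only 42.6, below the myoblast marker Ckm at 1883.

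Among the clock genes only Per2 and Dbp lay more than 2 spot errors from 0 in any comparison. Per3, Cry2, Arntl, Clock and Nr1d2 had high dose spot errors of 0.17 to 0.24, at which the rule would miss a 1.2-fold difference. The Cry2 high dose ratio, -0.25, was about as far from 0 as that of Dbp, 0.26. Of the 10 genes 9 were well above background on all 3 arrays, and 1 of these, Per2, had a high dose ratio that met the rule. No clock gene was lower by the rule in any comparison, and none met it in the low dose ratio (all genes 3.08%). In the high-to-low ratio Per2 was again the 1 gene of 9 that was apart (all genes 6.88%). The median log2 ratio of the 9 genes was 0.04 in the high dose ratio (all genes -0.01), -0.05 in the low dose ratio (all genes 0.00) and 0.12 in the high-to-low ratio (all genes -0.01). The last of these was 0.018 with the brightest probe of each gene and 0.047 with no filter on dim probes. A share of 1 in 9 is close to that of all genes, of which 8.8% were apart in either direction of the high dose ratio. Of the 9 genes 5 had a high dose ratio above 0 (47.9% of all genes), 4 a low dose ratio above 0 (50.4%) and 5 a high-to-low ratio above 0 (47%). None lay more than 2 spot errors below 0, against 12.8%, 4.56% and 10.6% of all genes in these comparisons. By level, 6 of the 9 (Per2, Per3, Cry2, Arntl, Clock and Nr1d2) were in the dimmest of 4 equal classes of genes, where the median spot error was 0.24 and 12.6% were apart in the high dose ratio. More RNA per cell and more cells expressing a gene cannot be told apart in these bulk samples.

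**Figure D1:**
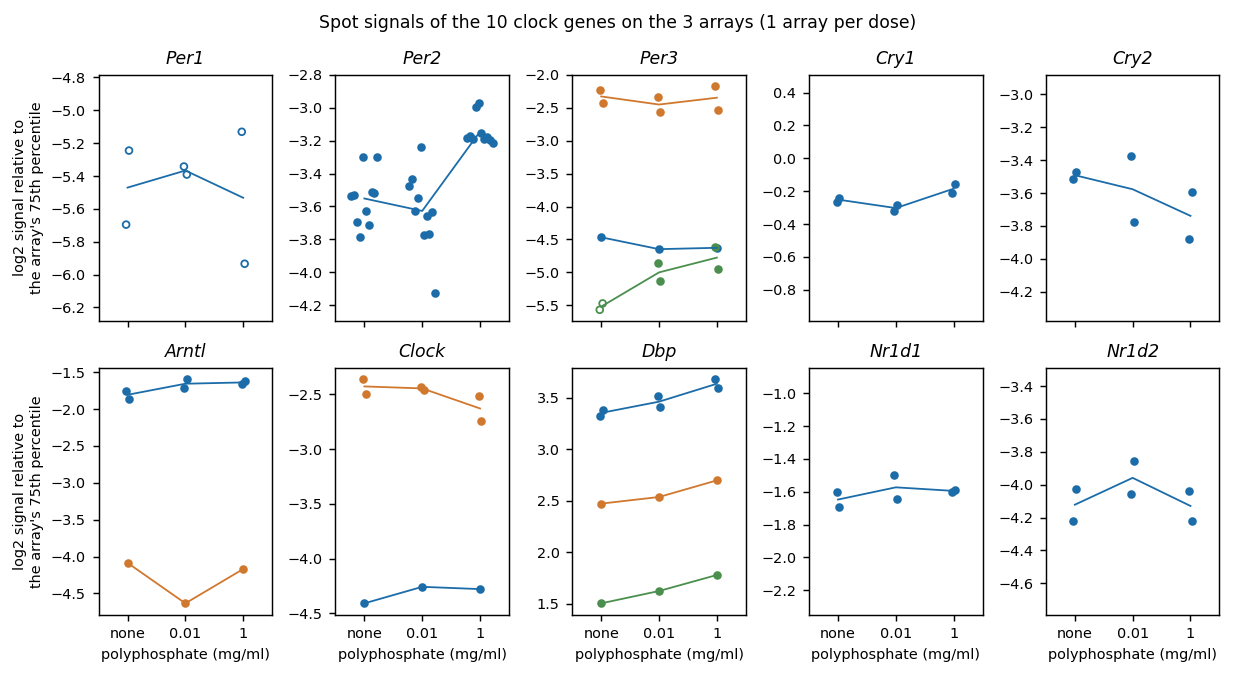
Signal of every spot of the 10 clock genes as log2 relative to the array's 75th percentile (y axis, its range differing between panels) against the polyphosphate dose (x axis, 1 array per dose). Each colour is a probe, lines join probe means and open circles are spots not well above background; the 10 Per2 spots and all 4 Dbp spots sit higher at 1 mg/ml than the control spots of the same probe, while Per1 stays at the background.

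Among the repressors of the loop, Per2 stood apart. Its probe (chromosome 9 at 90645610 to 90645669, minus strand, rn4 build) is printed 10 times on each array. Without polyphosphate these spots read from 67.2 to 94.2 with a median of 80.1, at 0.01 mg/ml from 55.3 to 102 with a median of 77.8, and at 1 mg/ml from 101 to 119.5 with a median of 103. After scaling, the high dose spots did not overlap those of either other array, and the low dose and control spots overlapped over most of their range. The high dose log2 ratio was 0.41 ± 0.08, a fold of 1.33, and the high-to-low ratio was 0.48 ± 0.08. From the 10 Per2 spots alone the errors were 0.058 and 0.080. Position by position, all 10 spots were higher with the high dose than in the control, with log2 ratios from 0.08 to 0.79. All 10 were also higher than on the low dose array. The low dose ratio was -0.08 ± 0.09, with 6 of 10 positions above 0, and it turned to 0.08 with centring on spike-ins. Of the 787 genes read by 10 or more spots, 3.68% were higher by the rule in the high dose ratio, and of the 811 in the high-to-low ratio 3.21%. Per2 lay at percentile 97.3 of all genes in the former and at 98.5 in the latter. With the normexp background correction, which adds 50 to every signal and so compresses dim genes, the high dose ratio was 0.22 and fell short of the rule.

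The Per2 promoter is shown because this gene carried the difference, beside those of Arntl and Nr1d1, which close the second feedback of the loop. The sequences are the 250 bases before the start site in RefSeq (GRCr8 build), written in the direction of the gene, with matches to clock elements in capitals. In Per2 (chr9:99496994-99497243, minus strand) the capitals mark a D-box and an E-prime-box. In Arntl (chr1:176766078-176766327, plus strand) they mark a RORE core, and in the downstream of the 2 Nr1d1 start sites (chr10:84229455-84229704, minus strand) an E-box.
Per2: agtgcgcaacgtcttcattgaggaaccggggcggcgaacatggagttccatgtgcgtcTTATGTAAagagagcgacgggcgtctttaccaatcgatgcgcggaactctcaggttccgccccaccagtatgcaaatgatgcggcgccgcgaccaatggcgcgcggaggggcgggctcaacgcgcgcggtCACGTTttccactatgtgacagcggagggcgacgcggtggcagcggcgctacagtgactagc
Arntl: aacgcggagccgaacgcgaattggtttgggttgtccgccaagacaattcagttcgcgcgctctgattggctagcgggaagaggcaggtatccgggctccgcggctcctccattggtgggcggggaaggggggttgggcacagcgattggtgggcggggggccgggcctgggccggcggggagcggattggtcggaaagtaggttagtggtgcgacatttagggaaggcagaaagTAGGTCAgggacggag
Nr1d1: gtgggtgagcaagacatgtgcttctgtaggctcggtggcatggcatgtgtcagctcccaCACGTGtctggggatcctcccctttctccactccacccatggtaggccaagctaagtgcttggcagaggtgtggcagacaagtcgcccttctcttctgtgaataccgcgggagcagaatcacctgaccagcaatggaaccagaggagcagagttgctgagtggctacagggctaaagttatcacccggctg

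The motifs searched on both strands were the E-box CACGTG, the E-prime-box CACGTT, the D-box TTATGTAA or TTACGTAA, the RORE core TAGGTCA or TGGGTCA, the CRE TGACGTCA and a hypoxia element ACGTGC, which can overlap an E-box or E-prime-box. The table held 11 windows for 9 of the 10 genes, Cry1 being without one. The Per2 window held a D-box at -192 to -185 and an E-prime-box at -62 to -57 from the start site. Of all 33469 windows of this length, 0.932% held a D-box and 4.07% an E-prime-box. The RORE core of Arntl lay at -16 to -10, and 5.62% of all windows held one. The E-box at the downstream Nr1d1 start lay at -191 to -186, and 5.59% of all windows held one. At the upstream Nr1d1 start an E-prime-box at -174 to -169 overlapped a hypoxia element (4.82% of all windows), and Cry2 had an E-prime-box at -212 to -207. No CRE was found in any of the 11 windows (1.59% of all windows), and those of Per1, Per3, Clock, Nr1d2 and Dbp matched none of the motifs. A match is a run of letters and no measured binding site.

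**Figure D2:**
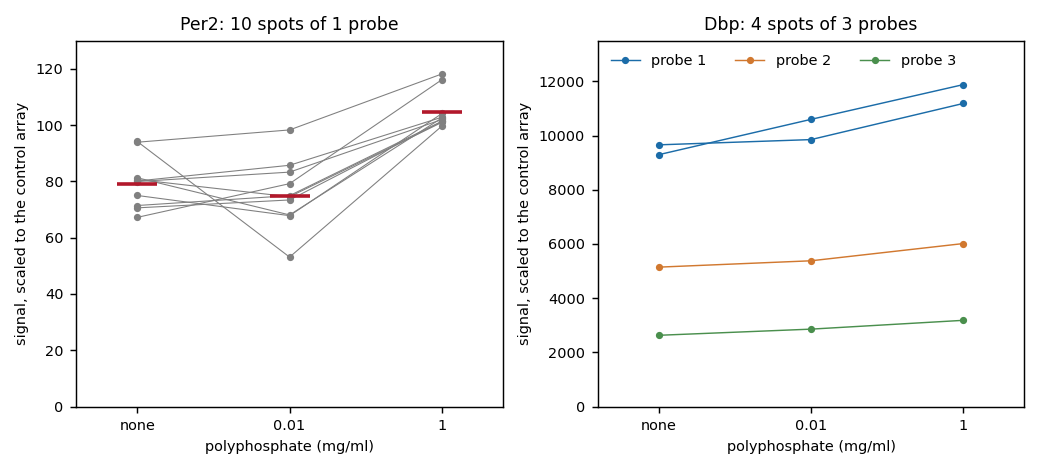
Signal of each spot, scaled to the control array by the 75th percentile (y axis, from 0), against the polyphosphate dose (x axis) for the 10 spots of the Per2 probe (left, red bars are geometric means) and the 4 spots of 3 Dbp probes (right). Lines join the same position on the 3 arrays; all 10 Per2 positions end above their control value at 1 mg/ml, and all 4 Dbp positions are higher at each dose than on the control array.

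The other Per genes gave no such clear difference. Per1, whose promoter takes up acute signals in many cells, was not well above background on any array and so has no ratio, with spots of 17.9 and 24.4 untreated, 23.8 and 23.0 at 0.01 mg/ml and 26.7 and 15.3 at 1 mg/ml. Per3 had 3 probes on chromosome 5. In the order control, low dose, high dose, a single-spot probe read 41.9, 38.5 and 37.9. A second probe with 2 spots (168152779 to 168152838, rn4) averaged 185, 176 and 184 in the same order. These probes together gave a high dose ratio of -0.09 ± 0.18 and a low dose ratio of -0.15 ± 0.18, both within 1 spot error of 0. The third Per3 probe, which adjoins the second at 168152839 to 168152898, went the other way. Its spots were 19.5 and 20.9 untreated, where neither was well above background, 33.1 and 27.4 at 0.01 mg/ml and 38.3 and 30.5 at 1 mg/ml. Against the control probe's own reading this is a nominal 1.68-fold with the high dose and 1.43-fold with the low dose. The Per3 probes thus disagreed, and with all 3 averaged the high dose ratio was 0.19 and the low dose ratio 0.07.

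The cryptochrome genes encode the partners of the Per proteins in repression. Cry1 (chromosome 7 at 20708985 to 20709044, rn4) read 772 and 785 untreated, 771 and 793 at 0.01 mg/ml and 808 and 840.3 at 1 mg/ml. After scaling, its spots did not overlap between the arrays, yet the high dose ratio of 0.07 ± 0.07 and the low dose ratio of -0.05 ± 0.07 were within 1 spot error of 0. Cry2 (chromosome 3 at 76802802 to 76802861, rn4) read 81.2 and 83.6 untreated, 92.9 and 70.3 at 0.01 mg/ml and 63.5 and 77.5 at 1 mg/ml. Both high dose spots were below both control spots after scaling, while the low dose spots lay on either side of them. The Cry2 high dose ratio was -0.25 ± 0.18, the lowest of the 9 genes, and the low dose ratio -0.09 ± 0.18, both within 2 spot errors of 0.

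The activator genes showed no ratio beyond 2 spot errors. One Arntl probe (chromosome 1 at 171161969 to 171162028, rn4) read 275 and 254 untreated, 293 and 319 at 0.01 mg/ml and 296 and 306 at 1 mg/ml. Both doses lay above the control on this probe, without overlap after scaling, at 0.17 ± 0.09 for the high and 0.15 ± 0.09 for the low dose. The other Arntl probe had 1 spot, which read 54.6 untreated, 38.8 at 0.01 mg/ml and 52.1 at 1 mg/ml, a high dose ratio of -0.08 ± 0.34 and a low dose ratio of -0.55 ± 0.35. The probes differed in sign, with a wide spot error on the 1-spot probe. The gene's mean of 0.04 ± 0.17 for the high and -0.20 ± 0.18 for the low dose thus depended on them, the second becoming 0.15 with the brighter probe alone. Clock, encoding the partner of the Arntl protein, had a high dose ratio of -0.04 ± 0.18, which turned to 0.12 with centring on spike-ins, and a low dose ratio of 0.07 ± 0.18. Its probes differed in sign too, the dimmer one resting on 1 spot with a wide spot error. The brighter one gave -0.20 ± 0.12 for the high dose, without overlap between the spots of the high dose and the control after scaling, and -0.02 ± 0.12 for the low dose. The dimmer one gave 0.13 ± 0.34 and 0.15 ± 0.34. The brighter Clock probe read 164 and 179.96 untreated, 175 and 178 at 0.01 mg/ml and 139.9 and 164 at 1 mg/ml, and its dimmer one 43.6, 50.4 and 48.3.

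Of the targets of the activator, Dbp was higher at the high dose with every probe. Dbp encodes the D-box binding factor whose RNA has one of the widest daily swings known in many tissues. The first probe (chromosome 1 at 96178423 to 96178482, rn4) read 9658 and 9294 untreated, 10254 and 11031 at 0.01 mg/ml and 11311 and 12014 at 1 mg/ml. The second read 5145, 5598 and 6082 in that order, and the third 2629, 2973 and 3217. Each probe thus ran from the control through the low to the high dose, and the high dose spots overlapped neither of the other arrays. The high dose log2 ratio was 0.26 ± 0.04, the low dose ratio 0.10 ± 0.04 and the high-to-low ratio 0.16 ± 0.04, each more than 2 spot errors from 0. Of all genes, 10.7%, 4.27% and 9.62% were higher by more than 2 spot errors in these comparisons. The high dose ratio of 0.261 lay just short of the 1.2-fold mark at 0.263, so Dbp was not counted, and it was counted under 6 alternative settings. Dbp lies in the brightest of the 4 level classes, where 1.21% of genes were counted as higher in the high dose ratio.

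The REV-ERB genes, which close the loop onto Arntl, had no ratio beyond 1 spot error of 0. Nr1d1 read 306 and 286 untreated, 341 and 308 at 0.01 mg/ml and 309 and 312 at 1 mg/ml, a high dose ratio of 0.05 ± 0.09 and a low dose ratio of 0.07 ± 0.09. Nr1d2 read 49.8 and 56.9 untreated, 57.8 and 66.5 at 0.01 mg/ml and 57.1 and 50.2 at 1 mg/ml. Its high dose ratio was -0.01 ± 0.24, of either sign across the scalings, and its low dose ratio 0.16 ± 0.22. The spots of each gene overlapped between the high dose and the control.

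**Figure D3:**
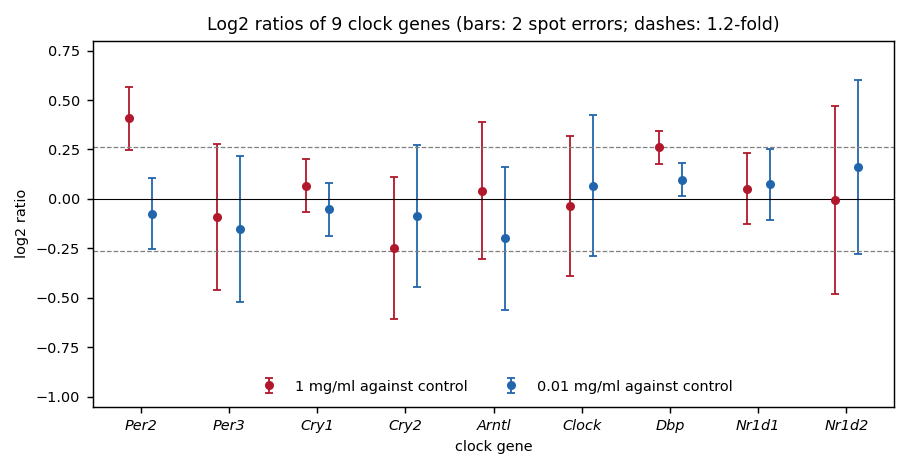
Log2 ratio (y axis) of the 9 clock genes measured on all 3 arrays (x axis) for the high dose (red) and the low dose (blue) against the same control array. Bars are 2 spot errors and dashed lines mark 1.2-fold; Per2 at 0.41 is above the line at the high dose, Dbp at 0.26 sits on it, and no gene passes it at the low dose.

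Other transcription factors of the clock were described from a list of 13, of which 11 had a probe and 9 were measured in each comparison. In the high dose ratio 1 was counted as higher and 2 as lower, beside 4.21% and 4.59% of all genes. In the low dose ratio none was higher and 1 lower, beside 1.31% and 1.77%. The list medians were -0.04 and -0.04 (all genes -0.01 and 0.00). Bhlhe40 encodes DEC1, a repressor at E-boxes that is also a known target of the hypoxia response. It read 408 and 425 untreated, 461 and 501 at 0.01 mg/ml and 615 and 617 at 1 mg/ml, a high dose ratio of 0.55 ± 0.08 and a low dose ratio of 0.15 ± 0.08. Npas2, a relative of Clock that can take its place beside the Arntl protein, was lower at both doses. Its brighter probe read 126 and 128 untreated, 108 and 91.1 at 0.01 mg/ml and 86.8 and 97.7 at 1 mg/ml, without overlap between the control and either dose. The high dose ratio was -0.48 ± 0.15 and the low dose ratio -0.41 ± 0.15. The second Npas2 probe had 1 of 2 spots well above background on the control array and none at either dose. Arntl2, a relative of Arntl, rested on 1 spot, which read 52.4 untreated, 40.2 at 0.01 mg/ml and 31.0 at 1 mg/ml, a high dose ratio of -0.77 ± 0.35. Its second probe was not well above background on any array and did not fall with the high dose. It read 10.1 untreated, 4.49 at 0.01 mg/ml and 15.5 at 1 mg/ml.

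Rora, encoding the activator that competes with the REV-ERB proteins at ROREs, passed the background threshold at 1 mg/ml alone. It read 10.4 and 9.38 untreated, 17.1 and 14.9 at 0.01 mg/ml and 29.8 and 33.4 at 1 mg/ml. The observed ratio was 3.16-fold between the high dose and the control, where the control signal was at the background, so this is nominal. Tef, which like Dbp encodes a D-box activator, had a high dose ratio of 0.14 ± 0.03 and a low dose ratio of 0.20 ± 0.03. In the same order Bhlhe41 stood at -0.04 ± 0.07 and 0.14 ± 0.07, Ciart at 0.07 ± 0.17 and -0.21 ± 0.18, and Nfil3, a repressor at D-boxes, at 0.00 ± 0.07 and -0.08 ± 0.07. Timeless, which works mainly at the replication fork in mammals, stood at -0.18 ± 0.03 and -0.04 ± 0.03.

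Kinases, ubiquitin ligases and cofactors that set the pace of the clock were a list of 21, with 16 measured and none apart in any of the 3 comparisons. Their median was 0.00 in the high dose ratio and 0.01 in the low dose ratio (all genes -0.01 and 0.00). The furthest from 0 with the high dose were Prkaa1, a catalytic subunit of AMPK, at 0.24 ± 0.11, and Sfpq at -0.19 ± 0.06. The casein kinase genes Csnk1d and Csnk1e, whose products phosphorylate the Per proteins, stood at -0.10 ± 0.05 and -0.01 ± 0.07 there.

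Of 12 genes known as outputs or modulators of the clock 10 were measured, with 2 higher and none lower in the high dose ratio (all genes 4.21% and 4.59%) and none apart in the low dose ratio (all genes 3.08%). Their medians were 0.12 and 0.00 (all genes -0.01 and 0.00). By spot error alone, 5 of the 10 lay more than 2 spot errors above 0 with the high dose and none below (all genes 10.7% and 12.8%). With the low dose these counts were 2 and 1 (all genes 4.27% and 4.56%). Nampt, the rate-limiting enzyme of NAD salvage, is driven through E-boxes and had 10 spots, with a high dose ratio of 0.33 ± 0.03 and a low dose ratio of 0.12 ± 0.03. Cirbp, encoding a cold-inducible RNA-binding protein that modulates the clock, read 180.1 and 197 untreated, 195 and 202 at 0.01 mg/ml and 226 and 245 at 1 mg/ml. Its high dose ratio was 0.30 ± 0.11 and its low dose ratio 0.02 ± 0.11. Its relative Rbm3, also cold-inducible, stood just under the mark at 0.25 ± 0.06 and -0.02 ± 0.06. In the high-to-low ratio 3 of the 10 were higher (all genes 3.84%), Klf11 at 0.28 ± 0.10, Cirbp at 0.29 ± 0.11 and Rbm3 at 0.27 ± 0.06.

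**Figure D4:**
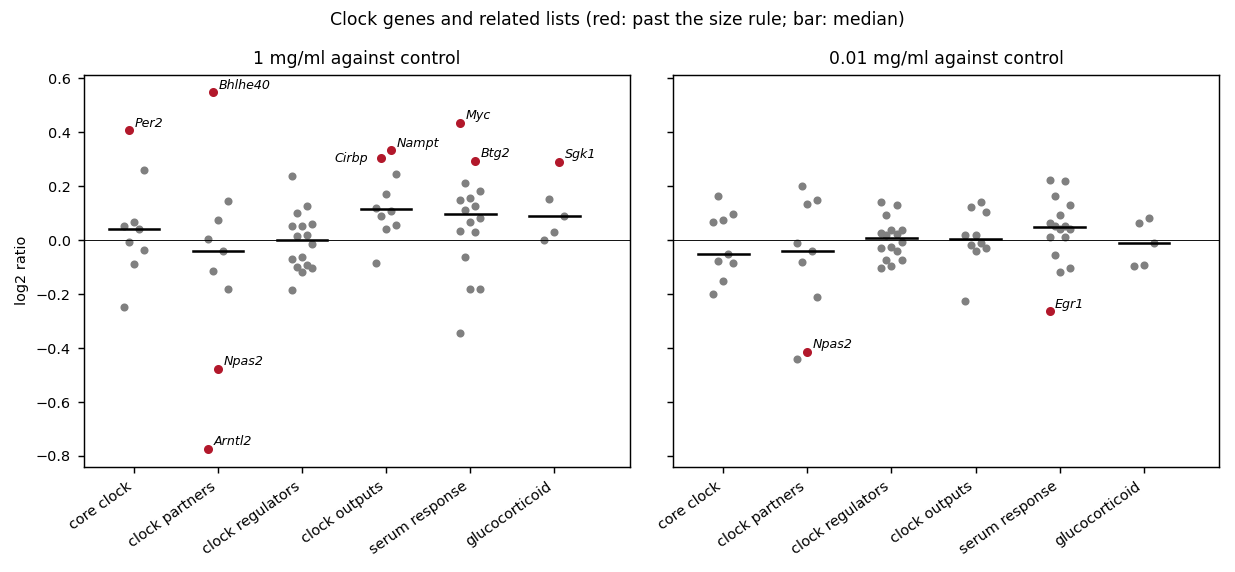
Log2 ratios (y axis) of the measured genes of 6 lists (x axis) for the high dose (left) and the low dose (right) against the control array. Red points are genes counted as apart and black bars are list medians. With the high dose 9 genes lie apart, from Arntl2 (1 spot) at -0.77 to Bhlhe40 at 0.55, with Per2 the only one of the core clock. With the low dose Npas2 and Egr1 lie apart. From left to right the lists hold 9, 9, 16, 10, 16 and 5 measured genes. Of all genes 8.8% were apart with the high dose and 3.08% with the low dose.

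Genes of opposite phase in the clock were then compared between the arrays, as a limited check on culture timing. In a running clock the genes driven through E-boxes and D-boxes peak in opposition to those repressed through ROREs. These arms can lie apart between cultures at different phases, but only where the cells of a culture share a phase. Whether they did was not measured, so the arms cannot settle the timing. The E-box and D-box genes measured were Per2, Per3, Dbp, Nr1d1, Nr1d2, Ciart, Tef and Bhlhe41. The RORE genes were Arntl, Clock, Npas2, Nfil3 and Cry1, though Cry1 is also driven by the E-box activator. Bhlhe40, at 0.55 in the high dose ratio, was placed in neither arm, and the differences depend on this assignment. In the high dose ratio the mean was 0.10 over 8 E-box and D-box genes and -0.08 over 5 RORE genes, a difference of 0.18 ± 0.08. In the low dose ratio the means were 0.03 and -0.14, a difference of 0.17 ± 0.08. In the high-to-low ratio the means were 0.08 and 0.06, a difference of 0.02 ± 0.08. Taken between the medians of the arms, the differences were 0.06, 0.17 and -0.04 in the same order, so the first was smaller and the last of the other sign. The arms overlapped gene by gene in all 3 comparisons. Both differences of means against the control were more than 2 spot errors from 0, an error that leaves out the spread between the genes of an arm. With normexp they were 0.13 ± 0.07 for the high and 0.12 ± 0.07 for the low dose, both within 2 spot errors of 0. Each difference was below the 1.2-fold mark, which was set for single genes. Leaving out Npas2, chosen after its values were seen, gave 0.08 ± 0.08 for the high and 0.10 ± 0.08 for the low dose. Leaving out Per2 gave 0.14 ± 0.08 and 0.18 ± 0.08. Both comparisons with the control share that array, whose harvest time is not stated, and phase and dose cannot be told apart from 1 array each.

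**Figure D5:**
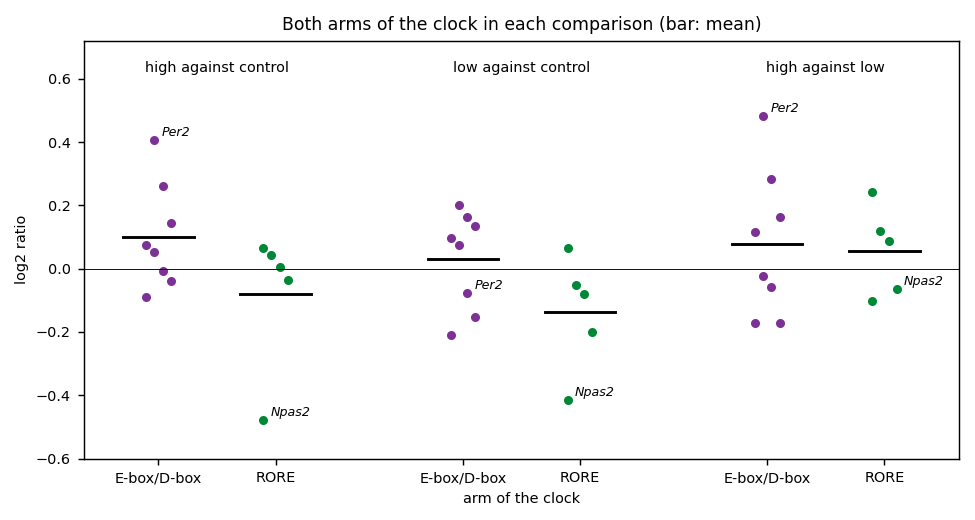
Log2 ratio (y axis) of each measured gene of the E-box and D-box arm (purple, 8 genes) and the RORE arm (green, 5 genes) in the 3 comparisons (x axis), with black bars for the means. The arms overlap in each comparison, with Npas2 the lowest RORE gene in both comparisons with the control (-0.48 and -0.41).

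Genes that answer serum or a medium change within hours were examined next. The treated cells had polyphosphate for 24 h and no control time is stated, so this list cannot settle the timing of the cultures. Of 21 such genes 16 were measured, with a median of 0.10 in the high dose ratio and 0.05 in the low dose ratio (all genes -0.01 and 0.00). With the high dose 2 were higher, Myc at 0.43 ± 0.03 and Btg2 at 0.29 ± 0.09, and none lower (all genes 4.21% and 4.59%). With the low dose none was higher and 1 lower (all genes 1.31% and 1.77%), Egr1 at -0.26 ± 0.11, of which the probe with 10 spots gave -0.07. Fos, Egr2, Egr3 and Zfp36 were not well above background on any array. Atf3 also has no ratio, with 1 of 2 spots well above background at 1 mg/ml and none on the other arrays. Its spots read 4.48 and 10.2 untreated, 4.76 and 4.58 at 0.01 mg/ml and 29.7 and 4.84 at 1 mg/ml. By spot error alone, 9 of the 16 lay more than 2 spot errors above 0 with the high dose and 1 below (all genes 10.7% and 12.8%). With the low dose these counts were 3 and 1 (all genes 4.27% and 4.56%). What lay behind this was not tested. Of 8 glucocorticoid-responsive genes 5 were measured and 1 was higher in the high dose ratio (all genes 4.21%), Sgk1, a kinase gene, at 0.29 ± 0.07. Its low dose ratio was -0.09 ± 0.07. Fkbp5, a further glucocorticoid target, stood at 0.00 ± 0.06 and -0.10 ± 0.06.

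Per2 had the widest range of the clock genes over the 3 arrays, 0.48 on the log2 scale. By the distance between pairs of log2 ratios (high and low against control), the 5 closest of 14386 genes were Zfp418, Sacm1l, Akna and 2 known by identifier only, at distances of 0.01 to 0.03. The ratios of Sacm1l were 0.40 and -0.08. As 70 genes (0.487%) lay within the Per2 spot error of 0.09, 3 arrays do not single out a partner.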

How the data were processed

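Gene expression was measured on 3 one-colour arrays on 1 slide, so position on the slide and group cannot be told apart. The intensity of each spot is what the authors deposited, unscaled between arrays. Per the file headers it came from Agilent Feature Extraction 10.7.3.1 (protocol GE1_107_Sep09, design 028279, coordinates in rn4), with background and spatial trend removed on each array. The authors also deposited a table whose values are a ratio of the processed signal to 1 constant per array (823, 849 and 823 for high, low and control); how it was made is not stated in the labels used here.

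From these, each processed signal was divided by the 75th percentile of its array over non-control spots, and its log2 averaged over the spots of a probe, without outlier-flagged spots. No clock gene spot was flagged and none was saturated. A probe counted as well above background with at least 50% of its spots so flagged. The spot error pooled the variance of repeat spots in 20 bins of level, over probes with all spots well above background. Names were updated through the RefSeq accession for 60.7% of probes (GRCr8, names only). Where a probe was above background on 1 array only, a fold against the other array's own reading was given as nominal. The named genes were the 10 clock genes, list genes apart in a comparison with the control (up to 6 a list, or otherwise the 2 furthest from 0) and the 5 genes closest in pattern to the clock gene of widest range; other list genes were named after their values were seen. The members and lists were chosen with earlier results of these data known. Alternatives were other scalings, normexp in limma 3.58.1, filters, size rules and probe choices. Scripts ran in Python 3.11.15 and were tested on simulated data. The number of arrays limits the precision.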

Additional observations from a re-analysis of the deposited data

How the results depend on the processing

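The number of clock genes apart for high against control was 1. It became 2, with Dbp beside Per2, under the 75th percentile over probes above background on all arrays, median centring, quantile normalization, centring on spike-ins, the authors' table and the brightest probe of a gene, and 0 under normexp, at least 2-fold and at least 1.5-fold. For high against low it was 1, and 0 at least 2-fold and at least 1.5-fold. For low against control it was 0 under all 13 alternatives. The median of the clock genes for low against control, -0.05, became 0.107 with centring on spike-ins and 0.069 with no filter on dim probes. Its high-to-low value, 0.12, became 0.018 with the brightest probe of a gene and 0.047 with no filter on dim probes. The arm difference for high against control became 0.081 without Npas2, an alternative added after seeing the data, and ranged from 0.13 to 0.20 under the 11 planned ones. Over all genes, the counts for high against control were 219 higher and 209 lower under normexp, 2552 and 121 with centring on spike-ins, and 1805 and 1882 with no filter on dim probes, beside 610 and 665. For low against control they were 49 and 98, 1529 and 61, and 1034 and 1693, beside 191 and 259. For high against low they were 213 and 91 under normexp and 1916 and 1218 with no such filter, beside 556 and 440. No paired analysis was possible because each group held 1 array. Signals near background limit Per1, Per3, Cry2, Nr1d2, Arntl2 and Rora. Per2, though well above background at every spot, was about as dim as Cry2 on the control and low dose arrays.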
